A study of Mus musculus with 4 samples.

Results

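Mature dendritic cells are the state that conventional dendritic cells enter as they prepare to leave the tissue for the draining lymph node. Dendritic cells take up antigen, present it to T cells on MHC molecules, and on maturing switch on the chemokine receptor CCR7, which guides them along CCL19 and CCL21 into the lymphatics, and fascin (Fscn1), which bundles the actin of their long processes. Mature cells are also known for strong NF-κB activity, surface molecules that activate or restrain T cells, and loss of the markers that distinguish their cDC1 and cDC2 precursors.

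The mature cells described here were chosen by a gate on unique molecular identifiers (UMIs, 1 for each captured RNA molecule), applied to liver non-parenchymal cells of 4 single-cell libraries. A cell had to carry at least 500 gene UMIs and 300 genes with at most 15% mitochondrial UMIs, at least 2 UMIs of Fscn1, at least 1 of Ccr7 and Il12b together and at least 1 of H2-Aa. It could hold no UMI of Cd79a, Cd3e or Siglech and fewer than 5 of C1qa, C1qb and C1qc together. Of 82905 cells that passed the depth and mitochondrial limits, 166 met the gate. Male C57BL/6J mice, 8 weeks old at the start, either stayed on regular chow or were given FAT-MASH, a model of metabolic dysfunction-associated steatohepatitis, for 12 or 24 weeks. FAT-MASH combined a Western diet (sucrose 41%, fat 21.1%, cholesterol 1.25%), drinking water with fructose (23.1 g/L) and glucose (18.9 g/L), and a low weekly dose of CCl4, a liver toxin, injected intraperitoneally. Chow mice are not described as receiving a mock injection, so diet, sugar water and CCl4 cannot be told apart. Each of the 4 groups (chow and MASH at 12 weeks, chow and MASH at 24 weeks) was 1 library, and the sources used here do not say how many animals went into it. Livers had been kept on ice overnight, digested with collagenase and DNase and enriched on a Percoll gradient, so a share of cells describes that suspension and not the liver.

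The gate held 11 mature cells of the 12-week chow library and 91 of 12-week MASH, then 12 of 24-week chow and 52 of 24-week MASH, the order in which values are given throughout. Their UMIs summed to 47154, 592221, 67392 and 386124, with medians of 3859, 6043, 5081.5 and 6921.5 UMIs per cell. Over all kept cells the medians were 2096, 3304, 2356 and 3464 UMIs, so MASH cells were the deeper ones among all cells as among the mature cells. With no replicate library there is no test and no p-value. The 95% intervals are exact binomial, Poisson or conditional binomial intervals, cover counting error only, and are too narrow wherever a few cells carry most of a gene's UMIs, since the UMIs of 1 cell are not independent. A gene with no UMI could still be present at up to 63.6, 5.07, 44.5 and 7.77 CPM in the same order. CPM is a gene's UMIs in 1000000 UMIs of a library's pooled mature cells, and values of different genes are not compared with each other.

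The mature cells were described on 12 genes of migratory dendritic cells that the gate did not use. These were Cacnb3, Cd63, Anxa3, Tmem123, Tspan3, Nudt17, Adcy6, Mreg, Samsn1, Relb, Zmynd15 and H2-M2. The median mature cell had a UMI of 9 of them in 12-week chow and of 10 in each other library. Cells with 3 or fewer numbered 1, 2, 1 and 3. Of the 12 genes, all but Samsn1 and Relb were among those most raised in these cells over the cDC1 and cDC2 gates below. The genes were chosen with earlier results of these data known, and no such count is given for either gate. The counts therefore describe the gated cells and cannot decide whether the label is right. Markers of the conventional subsets were still seen. The 7 cDC1 markers (Xcr1, Clec9a, Cadm1, Irf8, Batf3, Naaa and Wdfy4) summed to 361, 745, 371 and 619 CPM, from 7, 79, 10 and 43 cells. The 7 cDC2 markers (Cd209a, Clec10a, Mgl2, Sirpa, Irf4, Itgam and Cd7) summed to 106, 258, 237 and 186 CPM, from 4, 41, 7 and 17 cells. Among them Xcr1 stood at 0, 5.07, 0 and 15.5 CPM, and Cd209a at 0, 67.5, 0 and 12.9 CPM. Markers of other lineages were present in part of the cells, and a cell was set aside in a second analysis where any of 12 such marker lists reached 10 UMIs. This touched 2 of 11, 31 of 91, 5 of 12 and 6 of 52 cells, which left 9, 60, 7 and 46. The limit did not scale with depth, so deeper cells could reach it more readily. Epcam of the cholangiocyte list and Cd4 of the T cell list are also on the cDC2 identity list used below. In 12-week MASH the list that most cells reached was that of cholangiocytes, in 14 cells, with its marker Krt19 at 0. Cholangiocyte markers, which include Spp1, summed to 403, 1376, 1083 and 855 CPM. Endothelial markers summed to 912, 539, 1899 and 15.5 CPM, with all 10 markers seen in each library except 24-week MASH, where 5 of 10 were seen and Ptprb, Pecam1, Cdh5, Lyve1 and Oit3 were at 0. Erythroid markers summed to 42.4, 9365, 0 and 2.59 CPM, and monocyte or macrophage markers to 212, 1515, 712 and 539 CPM, with 1, 14, 6 and 12 of the 14 markers seen. The 1 seen in 12-week chow was Nr4a1, which is also on the list of dendritic cell transcription factors used below. Neutrophil markers reached 2063 CPM in 24-week chow, all of it in 1 cell. Scrublet, a doublet caller, marked 0, 8, 5 and 2 mature cells, and 2, 26, 5 and 8 carried several hashtags. Whether these cells are doublets or carry free RNA was not tested. Many of the counts and ratios below are also given without them, but not all. Among the 3 libraries whose barcodes could be joined, no barcode was shared between mature cells of 2 libraries. With 11, 12 and 52 mature cells hardly any match could arise, so this cannot decide whether barcodes passed between libraries. Over all cells, a pair of libraries shared 2.64% to 3.96% of the barcodes of the smaller library. Barcodes of the 12-week MASH library could not be compared.

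Mature cells made up a larger share of the MASH than of the chow suspension at both weeks. At 12 weeks they were 0.0597% of chow cells (95% interval 0.0298% to 0.107%) and 0.528% of MASH cells (0.426% to 0.648%), a ratio of 8.85 (4.72 to 18.4). At 24 weeks they were 0.0440% of chow cells (0.0227% to 0.0768%) and 0.261% of MASH cells (0.195% to 0.342%), a ratio of 5.93 (3.12 to 12.2). Both chow values lay below both MASH values, with no overlap of the intervals. Split by hashtag, whose meaning the labels do not give, the share among cells with 1 hashtag ran from 0% to 0.110% over the 3 hashtags of 12-week chow and from 0.316% to 0.693% over those of 12-week MASH. At 24 weeks it ran from 0% to 0.0934% over 8 hashtags in chow and from 0.200% to 0.447% over 8 in MASH. These point values did not overlap within a week, but some of their intervals did. Each 24-week chow hashtag held 0 to 2 mature cells and each 24-week MASH hashtag 4 to 7. The highest upper limit in chow was 0.256% at 12 and 0.337% at 24 weeks. The lowest lower limit in MASH was 0.168% and 0.0545%. Hashtags were not used as replicates. The 12-week MASH matrix was deposited with a column for every barcode of the kit and the other 3 with fewer columns, so its cells were set apart from empty droplets by the limits above alone. The part of this difference in the shares was not tested.

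The less mature conventional dendritic cells were also a larger share in MASH, by less at 12 weeks. They were taken from 2 comparison gates with fewer than 2 Fscn1 UMIs, at least 1 of H2-Aa and the same exclusions: a cDC1 gate (Xcr1 and Clec9a together at 2 or more UMIs) with 56, 94, 99 and 198 cells, and a cDC2 gate (Cd209a and Clec10a together at 2 or more UMIs, with no Xcr1 or Clec9a) with 50, 127, 85 and 282 cells. The share ratio of MASH to chow was 1.80 for the cDC1 gate (interval 1.28 to 2.55) and 2.72 for the cDC2 gate (1.95 to 3.85) at 12 weeks. At 24 weeks these were 2.74 (2.14 to 3.52) and 4.54 (3.55 to 5.85). Within the 3 gates together, mature cells were 9.40% of the 12-week chow cells and 29.2% of the 12-week MASH cells, a ratio of 3.10 (1.65 to 6.43). At 24 weeks they were 6.12% and 9.77%, a ratio of 1.60 whose interval (0.841 to 3.29) included 1.

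**Figure D1:**
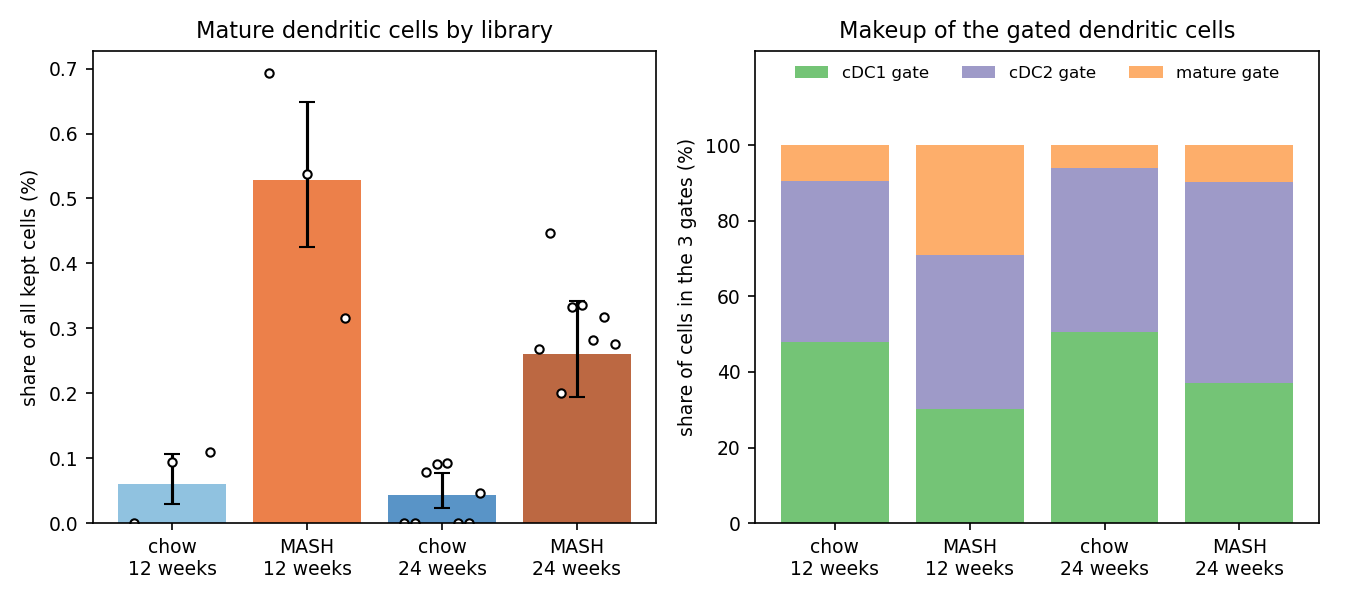
Left, mature dendritic cells as a percentage of all kept cells in each library, with exact binomial 95% intervals as bars and 1 open point for each hashtag; right, the percentage of each library's gated dendritic cells in the cDC1, cDC2 and mature gates. Chow libraries lie at 0.0597% and 0.0440% and MASH libraries at 0.528% and 0.261%, and the mature gate is widest in 12-week MASH at 29.2%.

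With every other condition of the gate met, 4, 13, 3 and 4 cells had an Fscn1 count of 1, and 3, 5, 1 and 3 had exactly 2. The condition on Ccr7 and Il12b turned away 8, 32, 7 and 28 cells with 2 or more Fscn1 UMIs, and of those 3, 6, 1 and 8 had a Zmynd15 UMI.

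The 4 marker genes separated the mature cells from both comparison gates, which describes the gate and is no finding for Fscn1, Ccr7 and Il12b. Fscn1 (chr5:142960343-142973185, plus strand, GRCm38) stood at 3542, 2163, 2656 and 2069 CPM and at 6.24 CPM or less in either comparison gate. Ccr7 (chr11:99144196-99155077, minus strand) stood at 4962, 3352, 3101 and 2939 CPM, highest in 12-week chow. Zmynd15 (chr11:70459433-70466202, plus strand), a zinc finger gene on no condition of the gate, stood at 403, 593, 534 and 650.0 CPM against 9.22 CPM or less in the comparison gates. Il12b (chr11:44400063-44414033, plus strand), the p40 subunit shared by IL-12 and IL-23, stood at 84.8, 424, 178 and 513 CPM and was carried by 2, 29, 5 and 14 cells. The cDC2 gate had no Il12b UMI in any library. All 4 genes are protein-coding.

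Of 9505 genes compared, 315 (3.31%) were at least 2-fold higher in the mature cells than in both comparison gates in all 4 libraries, and 87 (0.915%) were lower by the same rule. Genes with at least 50 UMIs over the 3 gates were compared, and the rule used the fold alone, with a gate at 0 UMIs set to 3 counts and no condition on the intervals. These are differences between gated cells and were open to the gate, so they carry no test. Of 46 genes compared from a list known from migratory dendritic cells, 40 were higher and none lower. The list was chosen with earlier results of these data known. It shares Cacnb3, Nudt17, Adcy6, Mreg, Tmem123 and Tspan3 with the migratory genes counted above, so it gives no independent support for the label. Cacnb3, a calcium channel subunit, stood at 954, 713, 1039 and 798 CPM against 5.12 CPM or less in the comparison gates. Fabp5, a fatty acid carrier, stood at 2502, 1810.1, 1306 and 2579 CPM and was at least 25.8-fold higher in each of the 8 pairings of a library and a gate. Tmem123, a surface mucin-like protein, was 22.9-fold to 59.9-fold higher, and Mreg, a melanosome transport protein, was at least 30.6-fold higher.

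Among genes of migration and the cytoskeleton other than Fscn1 and Ccr7, which the gate fixed as high, 7 of 20 were higher and 2 lower. Marcks, a membrane-bound actin regulator, stood at 1760.2, 1596, 1499 and 1289.7 CPM, 4.15-fold to 8.59-fold above the comparison gates. Cd63, a tetraspanin of late endosomes, stood at 1654, 1180.3, 1246 and 1238 CPM and was at least 39.0-fold higher. The 2 lower genes were Ccr2, the receptor that brings monocytes and their kin out of the blood, at 0, 65.9, 0 and 7.77 CPM against 192 CPM or more in the comparison gates, and Itgb7, an integrin chain for gut homing, at 42.4, 32.1, 14.8 and 38.8 CPM against 257 CPM or more.

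Of 13 chemokines compared, 3 were higher in the mature cells: Ccl5, Ccl22 and Cxcl16. Ccl5 (chr11:83525778-83530518, minus strand), which attracts T and NK cells, stood at 7847, 10616, 10016 and 5977 CPM and was 16.4-fold to 205-fold above the comparison gates. Ccl22, the CCR4 ligand that draws regulatory T cells, stood at 212, 294, 757 and 992 CPM, lower in both 12-week libraries than in both 24-week ones. Cxcl16, the CXCR6 ligand that draws tissue-resident T and NKT cells, stood at 954, 783, 668 and 945 CPM, at least 6.54-fold higher. Of 10 cytokine genes other than Il12b, which the gate used, 2 were higher: Il15 (21.2, 67.5, 119 and 69.9 CPM, from 1 UMI in 12-week chow) and its presenting receptor Il15ra (84.8, 113, 104 and 111 CPM). No Il12a UMI, the other chain of IL-12, was seen in any mature cell, and Il23a, the partner chain of IL-23, had 1 UMI, in 12-week MASH.

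Costimulatory genes were higher in 4 of 10 and lower in 1. Cd83, which stabilises MHC class II and CD86 at the surface, stood at 551, 515, 638 and 725 CPM, 4.30-fold to 10.4-fold above the gates, and Icam1, Tnfrsf4 and Tnfrsf9 were the other 3. Cd48 was lower. Of 14 inhibitory and regulatory genes, 8 were higher: Cd274, Cd200, Socs2, Fas, Aldh1a2, Il4i1, Pvr and Cblb. Cd274, which encodes the checkpoint ligand PD-L1, stood at 127, 133, 134 and 124 CPM against 26.3 CPM or less in the comparison gates. Aldh1a2, the enzyme that makes retinoic acid, stood at 191, 87.8, 104 and 95.8 CPM against 3.24 CPM or less. Socs2, a brake on cytokine receptors, stood at 191, 263, 312 and 492 CPM against 7.56 CPM or less.

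NF-κB signalling genes were higher in 11 of 22 and lower in none. Relb, the partner of p52 in the non-canonical branch, stood at 657, 544, 534 and 666 CPM, 12.6-fold to 85.7-fold above the comparison gates. Its partner gene Nfkb2 stood at 339, 249.9, 193 and 272 CPM, and Map3k14, the kinase NIK that starts this branch, at 127, 149, 252 and 205 CPM. Traf1, a TNF receptor adaptor, was 6.31-fold to 40.2-fold higher. Rel, a canonical subunit, stood at 1315, 878, 505 and 474 CPM, higher in both 12-week libraries than in both 24-week ones. Transcription factor genes were higher in 5 of 25 (Stat4, Etv3, Nr4a3, Relb and Spib). Irf8, the factor of the cDC1 lineage, was at 127, 243, 134 and 209.8 CPM, between the cDC1 gate (1388 to 2012 CPM) and, in MASH, the cDC2 gate (73.4 and 69.8 CPM).

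To show what the promoters of this group hold, the 250 bases before each RefSeq gene start (GRCm38.p6) were searched on both strands for the κB motif, spelled GGG, any 2 bases, TTTCC. It was found in 5 of 19 NF-κB signalling genes with a promoter in the table (26.3%: Nfkb2, Rel, Nfkbia, Tnfaip3 and Bcl2l1) and in 447 of 27025 promoters (1.65%). Of the 315 genes higher in the mature cells, 256 had a promoter and 12 of them (4.69%) held the motif. A match is a description of the letters and not evidence of binding. The Rel promoter (chr11:23770970-23771219, minus strand) is printed because Rel is a subunit of the factor itself. Capitals mark the motif, which ends 81 bases before the start.
Rel: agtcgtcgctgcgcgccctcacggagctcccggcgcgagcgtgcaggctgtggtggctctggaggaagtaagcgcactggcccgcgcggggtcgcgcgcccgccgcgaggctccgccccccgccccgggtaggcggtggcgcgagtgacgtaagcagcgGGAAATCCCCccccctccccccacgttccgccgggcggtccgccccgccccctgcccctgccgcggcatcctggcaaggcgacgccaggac

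**Figure D2:**
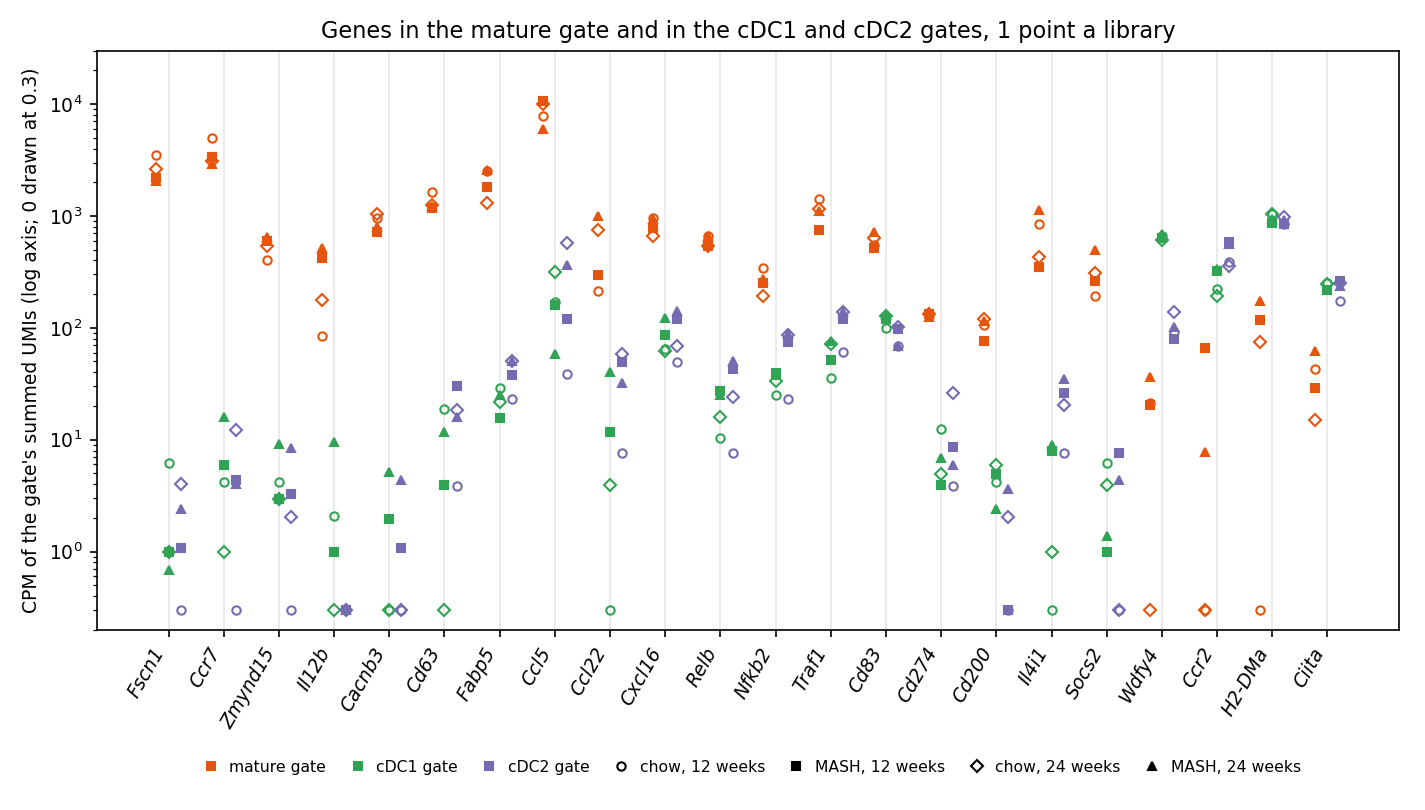
CPM (log axis, 0 drawn at 0.3) of 22 genes in the mature gate and in the cDC1 and cDC2 gates, with 1 point for each gate and library. From Fscn1 to Socs2 the mature points lie above those of both comparison gates, and for Wdfy4, Ccr2, H2-DMa and Ciita they lie below.

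MHC class I genes were higher in 8 of 20 and lower in none. B2m, the common light chain, stood at 4856, 6045, 4837 and 4475 CPM, 2.32-fold to 3.29-fold above the comparison gates. H2-M2, a non-classical class I gene, stood at 488, 157, 549 and 243 CPM against 12.5 CPM or less. H2-Q6 and H2-Q7 were among the 8, but these near-identical copies can share reads and are uncertain. MHC class II genes did not follow by the rule of all 4 libraries. Of 15 compared besides H2-Aa, which all 3 gates required, 2 were higher (H2-Eb2 and Cd83) and 3 lower (Ciita, H2-DMa and H2-DMb1). Ciita, the master activator of class II transcription, stood at 42.4, 28.7, 14.8 and 62.2 CPM against 173 CPM or more in the gates. H2-DMa, a chain of the peptide loader for class II, stood at 0, 118, 74.2 and 174 CPM against 839.6 CPM or more. The libraries differed in the summed CPM of the class II list, H2-Aa included. In 12-week chow, 12-week MASH and 24-week chow it was 20953, 30289 and 13993, against 45608 or more in the gates. In 24-week MASH it was 61208, above the cDC1 gate (56489) and the cDC2 gate (58529). Without the genes that define the comparison gates, genes of cDC1 identity were higher in none of 17 and lower in 2, Naaa and Wdfy4, and genes of cDC2 identity were higher in 2 of 17, Tmem176a and Esam. None of 25 antigen uptake genes, 22 interferon response genes or 16 cell cycle genes was higher or lower.

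Mature cells of MASH and chow were then compared gene by gene in each week. A gene was called where the ratio of the CPM values was at least 2, or 0.5 or less, and its interval excluded 1, among genes with at least 20 UMIs over both libraries. At 12 weeks 60 of 3896 genes (1.54%) were called higher in MASH and 165 (4.24%) lower. At 24 weeks 93 of 2727 (3.41%) were called higher and 143 (5.24%) lower. The median log2 ratio over all compared genes was -0.11 at 12 weeks and -0.02 at 24 weeks. Of 2642 genes compared in both weeks, 14 were called higher and 19 lower each time. Without the cells that carried other-lineage markers, 6 were called higher and 8 lower in both weeks, of which 4 (Epsti1, Ftl1, Gapdh and Psap) and 5 (with Fdps, Gm13546, H2-M2 and L1cam) were among those first called.

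MHC class II genes were higher in MASH at 24 weeks. Of 15 compared, 9 were called higher and none lower, with a median log2 ratio of 2.12. H2-Aa is in this and the next counts although the gate required it, so its own ratios give no independent support. At 12 weeks 1 of 13, the protease gene Ctss, was called higher, with a median of 0.43. Without cells that carried other-lineage markers 7 of 14 were called higher at 24 weeks (median 1.19). H2-DMb2 (1.66) and H2-Oa (1.95) were then no longer called, nor was Lgmn, and Ctss was called (2.09). At 12 weeks 1 of 12 was called (median 0.64), which was H2-Eb1 (2.06) and no longer Ctss (1.86). H2-Aa, one of the genes of the gate, encodes an alpha chain of class II and stood at 4178, 6156, 2626 and 11424 CPM. H2-Ab1 (chr17:34257689-34269419, plus strand, protein-coding), its beta chain, stood at 1145, 1996, 846 and 6128 CPM. The 24-week MASH library was the highest of the 4 for both genes and 24-week chow the lowest. For H2-Ab1 the 12-week ratio was 1.74 (1.33 to 2.33) and the 24-week ratio 7.24 (5.57 to 9.60). In cells with 1 hashtag the 24-week ratios were 211 for H2-Ab1 and 37.1 for H2-Aa. They rested on 7 chow cells, of which 1 held H2-Ab1, with 1 UMI. Against chow hashtags 1 to 4 the H2-Ab1 value of 38.4 was a lower bound, since those chow cells held no H2-Ab1 UMI. Against hashtags 5 to 8 it was 70.1, from that 1 chow UMI. The H2-Aa ratios against these subsets were 30.7 and 43.6. Cd74, the invariant chain that guards the class II groove, stood at 8525, 12874, 6277 and 27214 CPM, with ratios of 1.51 (1.37 to 1.67) and 4.34 (3.93 to 4.79). H2-Eb1 had ratios of 1.69 (1.41 to 2.03) and 6.39 (5.25 to 7.86). The rest of the 9 were H2-Eb2, H2-DMb2, H2-Oa, Ifi30 and Lgmn, of which H2-Eb2 stood at 44.5 CPM in 24-week chow and 429.9 in 24-week MASH. The libraries lay closer together in both comparison gates for Cd74, at 24027 to 27456 CPM in the cDC1 gate and 21490.0 to 25428 CPM in the cDC2 gate, and for H2-Ab1, at 8142 to 10068 CPM in the cDC1 gate and 5981 to 8897 CPM in the cDC2 gate.

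Single cells carried much of the class II signal in chow. One cell held 79.6% of the H2-Ab1 UMIs in 12-week chow and another 40.4% in 24-week chow, against 12.9% and 13.9% in the MASH libraries. With the top cell of each library left out, the H2-Ab1 ratio was 7.01 at 12 weeks and 10.4 at 24 weeks, so the 12-week ratio depended on 1 cell. The UMIs of H2-Aa, H2-Ab1, H2-Eb1 and Cd74 were therefore summed in each cell and given as UMIs in 10000. The median mature cell had 75.1 (lowest 14.4, highest 837) in 12-week chow and 171 (10.4 to 1132) in 12-week MASH. The values were 59.5 (6.56 to 472) in 24-week chow and 376 (30.4 to 1425) in 24-week MASH. The ranges overlapped widely. At a limit of 200, set after the values were seen, 2 of 11, 40 of 91, 2 of 12 and 33 of 52 cells were above (18.2%, 44.0%, 16.7% and 63.5%). Counted over cells, the 12-week ratio of MASH to chow was 2.42 (0.627 to 20.6) and the 24-week ratio 3.81 (0.974 to 32.8), and both intervals included 1. In cells with 1 hashtag none of 7 cells of 24-week chow and 30 of 44 cells (68.2%) of 24-week MASH were above. The lower limit of that ratio was 1.22. Cells with other-lineage markers left out, the shares were 22.2%, 55%, 14.3% and 65.2%. In the cDC1 gate 89.4% to 96.5% of cells were above the limit in the 4 libraries and in the cDC2 gate 71.8% to 84.0%. A total of 0, 14, 2 and 7 mature cells lay between 150 and 250, so the limit divides a range and not cell types.

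**Figure D3:**
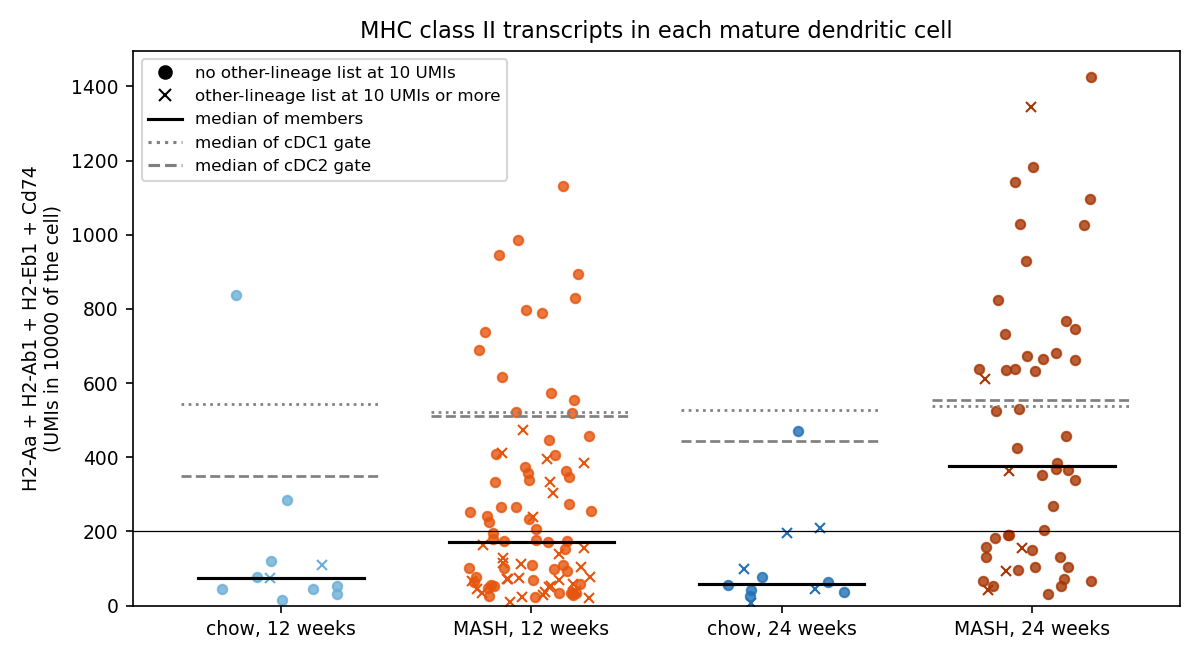
Summed UMIs of H2-Aa, H2-Ab1, H2-Eb1 and Cd74 in 10000 UMIs of the cell, with 1 point for each mature cell, crosses for cells with other-lineage markers, solid bars for the median of mature cells and broken bars for the medians of the comparison gates. Medians of 75.1, 171, 59.5 and 376 lie below the gates' medians in every library, and MASH cells spread from near 0 to above 1000.

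The class II promoters have a shared layout of W, X and Y boxes read by the RFX, CREB and NF-Y factors together with CIITA. The core of the Y box as searched here, CTGATTGG (reverse CCAATCAG), lay in 4 of the 12 listed class II genes with a promoter in the RefSeq table (33.3%) and in 1198 of 27025 promoters (4.43%). The 4 were H2-Aa, H2-Eb1, H2-Eb2 and H2-Oa, which were among the 9 of 15 class II genes called higher in 24-week MASH. H2-Ab1, Cd74, H2-DMb2, Ifi30 and Lgmn were called with no match found. The gate required H2-Aa, and whether the match goes with the call was not tested. H2-Oa rested on 1 UMI in 24-week chow, and its ratio was 1.19 against chow hashtags 1 to 4 alone. The 4 promoters are printed because they hold the match, each as the 250 bases before the start (GRCm38.p6), with the match in capitals. The coordinates are chr17:34287824-34288073 on the minus strand for H2-Aa and, on the plus strand, chr17:34305617-34305866 for H2-Eb1, chr17:34325425-34325674 for H2-Eb2 and chr17:34092129-34092378 for H2-Oa. The matches end 43, 54, 95 and 38 bases before the start in the same order. A gene without a match lacks only these letters in this window, and nothing about binding was measured.
H2-Aa: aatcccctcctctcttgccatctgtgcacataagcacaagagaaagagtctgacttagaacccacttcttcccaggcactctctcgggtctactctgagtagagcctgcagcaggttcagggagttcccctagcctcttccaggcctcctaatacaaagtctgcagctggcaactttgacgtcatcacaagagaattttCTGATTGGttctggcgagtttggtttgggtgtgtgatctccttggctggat
H2-Eb1: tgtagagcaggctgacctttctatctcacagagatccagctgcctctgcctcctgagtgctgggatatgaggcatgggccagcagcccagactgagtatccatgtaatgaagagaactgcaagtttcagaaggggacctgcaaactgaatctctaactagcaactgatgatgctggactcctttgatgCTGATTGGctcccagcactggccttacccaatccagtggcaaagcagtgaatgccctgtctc
H2-Eb2: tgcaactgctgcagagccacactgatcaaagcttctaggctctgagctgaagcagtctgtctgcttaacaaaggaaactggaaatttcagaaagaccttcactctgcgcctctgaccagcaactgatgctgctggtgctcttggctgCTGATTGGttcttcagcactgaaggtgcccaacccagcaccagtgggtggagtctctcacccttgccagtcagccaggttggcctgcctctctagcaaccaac
H2-Oa: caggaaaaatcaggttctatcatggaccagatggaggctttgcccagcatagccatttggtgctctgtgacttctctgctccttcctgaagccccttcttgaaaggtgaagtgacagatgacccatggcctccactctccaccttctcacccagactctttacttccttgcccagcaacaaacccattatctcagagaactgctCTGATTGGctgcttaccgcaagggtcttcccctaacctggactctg

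Within the 2 MASH libraries, mature cells above and below the class II limit of 200 were set against each other. Of 2266 genes compared in both, 13 (0.574%) were called higher and 13 (0.574%) lower in the cells above the limit in both libraries. The 4 genes of the sum fix the split and are left out of what follows. Of 9 class II genes compared, 4 were called higher in both: H2-DMa at 231 against 30.0 CPM at 12 weeks and 223 against 30.1 at 24 weeks, H2-DMb2, H2-Oa and H2-Eb2. Itgax, the integrin CD11c of dendritic cells, was 3.85-fold (1.96 to 8.14) and 12.5-fold (2.11 to 508) higher. Ccl5 was lower above the limit, at 6377 against 13915 CPM at 12 weeks and 3955 against 11790 at 24 weeks. The Ccl5 ratios were 0.458 (0.433 to 0.485) and 0.335 (0.309 to 0.364), and 0.315 and 0.306 without cells that carried other-lineage markers. Spp1 was called higher above the limit, but the ratio was 0.77 and 1.02 without those cells, a set that its own UMIs help to choose. The neutrophil genes S100a8 and S100a9 were lower above the limit. The summed neutrophil markers fell to 12.0 and 21.0 CPM from 154 and 505 CPM once 1 cell of each MASH library was left out. Median UMIs per cell were 5948 above and 6043 below the limit at 12 weeks and 7946 and 3514 at 24 weeks, so depth moved with the split at 24 weeks and its part in the result was not tested. None of the markers Fscn1, Ccr7, Il12b and Zmynd15 was called in both libraries, but at 24 weeks Fscn1 was lower above the limit, at 0.465 (0.403 to 0.536), and Il12b higher, at 8.26 (4.11 to 19.4).

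**Figure D4:**
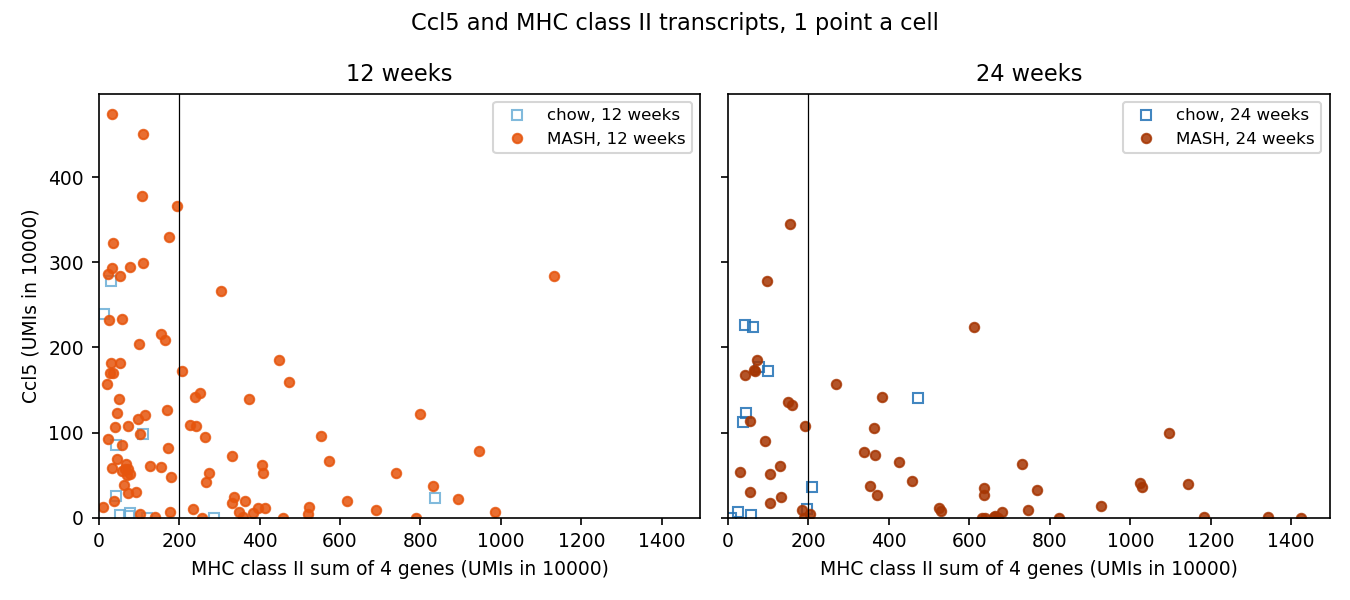
Ccl5 UMIs in 10000 against the summed class II UMIs in 10000, with 1 point for each mature cell and the limit of 200 as a line; the left panel shows 12 weeks and the right panel 24 weeks. Cells with the most Ccl5 lie mostly left of the line, and pooled Ccl5 in MASH was 13915 CPM left and 6377 CPM right of it at 12 weeks and 11790 and 3955 CPM at 24 weeks.

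Chemokine genes differed between MASH and chow in both directions. For Ccl5 the 12-week ratio was 1.35 (interval 1.22 to 1.51) and the 24-week ratio 0.597 (0.547 to 0.651), past 1 on either side but short of the 2-fold limit. One cell held 47.6% of Ccl5 UMIs in 12-week chow, and without the top cells the ratios were 2.12 and 0.621. Without cells that carried other-lineage markers the 24-week Ccl5 ratio was 0.302, called lower, but against chow hashtags 1 to 4 alone it was 1.46 and against hashtags 5 to 8 0.287. Ccl22 had ratios of 1.39 (0.736 to 2.94) and 1.31 (0.977 to 1.79). Of 10 chemokines compared at 12 weeks 3 were called higher (Ccl4, Ccl6 and Cxcl2), and of 9 at 24 weeks 3 were called higher (Ccl4, Ccl6 and Ccl9) and 2 lower (Ccl3 and Cxcl2). With cells that carried other-lineage markers left out, none of 6 was called at 12 weeks, and of 7 at 24 weeks Ccl4 was called higher (2.43) and Ccl5 lower. These myeloid chemokines rested on few cells: Ccl4 was at 0, 201, 148 and 329 CPM, from 0, 17, 1 and 12 cells, and Ccl6 at 21.2, 152, 14.8 and 104 CPM, with 1 UMI in each chow library. In the cDC2 gate, Ccl4 stood at 579 to 1349 CPM and Ccl6 at 503 to 732 CPM. Il12b, whose UMIs could admit a cell to the gate, was called higher in both weeks, with ratios of 5.0 (1.93 to 18.5) and 2.88 (1.61 to 5.67). At 12 weeks the chow value of Il12b rested on 4 UMIs in 2 cells, and at 24 weeks the ratio was 1.82 and no longer called without cells that carried other-lineage markers. Against chow cells of hashtags 5 to 8 alone, the 24-week Il12b ratio was 0.733.

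Of the costimulatory genes, none of 9 was called at 12 weeks, and Cd40 and Icosl of 9 were called higher at 24 weeks. Cd40, the receptor for T cell help, stood at 106, 128, 29.7 and 202 CPM, with 2 UMIs in 24-week chow and a 24-week ratio of 6.81 (1.82 to 57.2). Icosl, the ICOS ligand, stood at 148, 149, 119 and 337 CPM. Neither was called without cells that carried other-lineage markers, with ratios of 2.84 and 1.38. Among inhibitory and regulatory genes, 1 of 13 was called lower at 12 weeks (Il4i1) and 2 of 10 higher at 24 weeks (Il4i1 and Cblb). Cblb was not called without cells that carried other-lineage markers (1.88). The Cd274 ratios were 1.05 (0.461 to 2.94) and 0.931 (0.452 to 2.16). At 24 weeks the ratio was 3.55 without cells that carried other-lineage markers, with an interval (0.604 to 144) that included 1. It was 2.36 without Scrublet calls, 4.17 in cells with 1 hashtag and 2.34 against chow hashtags 1 to 4. These 4 values rested on 1 or 2 Cd274 UMIs in chow. Il4i1, a secreted amino acid oxidase that restrains T cells, was called lower at 12 weeks and higher at 24 weeks. It stood at 848, 349.5, 430.3 and 1132 CPM. Its 12-week ratio was 0.412 (0.293 to 0.594) and its 24-week ratio 2.63 (1.81 to 3.97), and 0.383 and 4.24 without cells that carried other-lineage markers. None of 20 NF-κB genes was called in either week, and the median log2 ratio was -0.43 and -0.07. Without cells that carried other-lineage markers 1 was called higher and 1 lower at 24 weeks. Of MHC class I genes, 1 of 20 was called higher (Psmb10) and 2 lower (H2-M2 and Tapbpl) at 12 weeks, and 1 of 19 higher (Calr) and 2 lower (H2-M2 and H2-Q6) at 24 weeks. Psmb10 and Tapbpl were not called without cells that carried other-lineage markers. Calr, a chaperone of class I assembly, had a ratio of 8.99 (2.43 to 75.2), from 2 UMIs in 24-week chow. H2-M2 was at 0.322 (0.202 to 0.533) and 0.443 (0.3 to 0.667), but the 12-week ratio was 2.53 with every cell thinned to 1000 UMIs and the 24-week ratio 1.39 against chow cells of hashtags 5 to 8 alone.

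Some genes of cholesterol synthesis were lower in MASH. Of the cholesterol and lipid list, 4 of 16 were called lower at 12 weeks and 4 of 14 at 24 weeks, with Hmgcs1 and Fdps in both weeks and Idi1 at 24 weeks. In each week 1 was called higher, Apoe at 12 weeks and the cholesterol exporter Abcg1 at 24 weeks. Neither was called without cells that carried other-lineage markers, while Fabp5 was then called higher at 24 weeks (2.14). The median log2 ratio of the list was -0.34 and -0.64. Hmgcs1, an early enzyme of the synthesis route, stood at 233, 62.5, 104 and 33.7 CPM, with ratios of 0.268 (0.134 to 0.582) and 0.324 (0.12 to 0.959). Fdps, which makes farnesyl diphosphate, stood at 276, 84.4, 163 and 46.6 CPM, with ratios of 0.306 (0.164 to 0.615) and 0.286 (0.128 to 0.669). Both MASH libraries lay below both chow libraries for both genes. Without cells that carried other-lineage markers the Fdps ratios were 0.227 and 0.169 and the 12-week Hmgcs1 ratio was 0.234, while Hmgcs1 fell under the UMI minimum at 24 weeks and Idi1 was no longer called (0.487). The UMIs were few, with 11 and 7 of Hmgcs1 in the chow libraries.

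Other genes called the same way in both weeks belonged to several roles. Epsti1, an interferon-inducible gene, stood at 403, 1602, 489.7 and 1305 CPM, with ratios of 3.98 (2.53 to 6.64) and 2.67 (1.87 to 3.92), and 15.3 and 2.01 without cells that carried other-lineage markers, but 0.986 in the later week once cells were thinned to 1000 UMIs. Psap, the precursor of lysosomal saposins, stood at 424, 1196, 727 and 1722 CPM, with ratios of 2.82 (1.81 to 4.64) and 2.37 (1.77 to 3.23). Gapdh, of glycolysis, stood at 191, 608, 297 and 774 CPM. Ftl1, the ferritin light chain, stood at 3457, 8377, 4348 and 9088 CPM, with ratios of 2.42 (2.07 to 2.85) and 2.09 (1.85 to 2.36). Each of these 4 was higher in both MASH libraries than in both chow libraries. Ly75, the antigen uptake receptor DEC-205, stood at 63.6, 209, 59.4 and 243 CPM, and Gclc, of glutathione synthesis, at 42.4, 225, 104 and 311 CPM. Against chow cells of hashtags 5 to 8 alone the 24-week ratios were 0.928 for Ly75 and 0.711 for Gclc. Without cells that carried other-lineage markers the 24-week ratios were 2.45 and 1.59, neither of them called. Spp1 stood at 0, 405, 0 and 332 CPM, but 1 cell held 67.5% of its UMIs in 12-week MASH and 93.0% in 24-week MASH. Among the genes called lower, Tsc22d3, a glucocorticoid-induced gene, stood at 573, 189, 430.3 and 139.9 CPM (12-week ratio 0.617 and not called without cells that carried other-lineage markers), and Ramp3, a receptor-modifying protein, at 339, 92.9, 148 and 25.9 CPM. Selenop, a plasma selenium carrier of hepatocytes and endothelium, stood at 679, 236, 742 and 41.4 CPM, moved with the endothelial markers, and had a ratio of 1.51 in place of 0.348 at 12 weeks without the top cells. S100a10 likewise had 1.01 in place of 0.281.

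The remaining lists held few calls. Of the transcription factor genes, 1 was called higher (Batf3) and 2 lower (Klf4 and Stat4) of 23 at 12 weeks, and 1 higher (Stat5a) and 1 lower (Zeb2) of 19 at 24 weeks, where the Zeb2 ratio was 3.34 in cells with 1 hashtag. Of the interferon response genes none of 14 was called at 12 weeks, and 1 was higher (Isg15) and 2 lower (Stat2 and Usp18) of 10 at 24 weeks. Of the migration genes 1 of 18 was lower at 12 weeks (Cdc42ep3) and 1 of 16 at 24 weeks (Cxcr4). None of 11 and 7 antigen uptake genes was called. Without cells that carried other-lineage markers, no transcription factor gene was called higher in either week, and 2 were called lower in each. None of 5 and 7 interferon response genes was then called. Cdc42ep3 was still lower at 12 weeks (0.372), and none of 15 migration genes was called at 24 weeks. Of 7 antigen uptake genes at 24 weeks, Flt3 was then called lower (0.456).

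**Figure D5:**
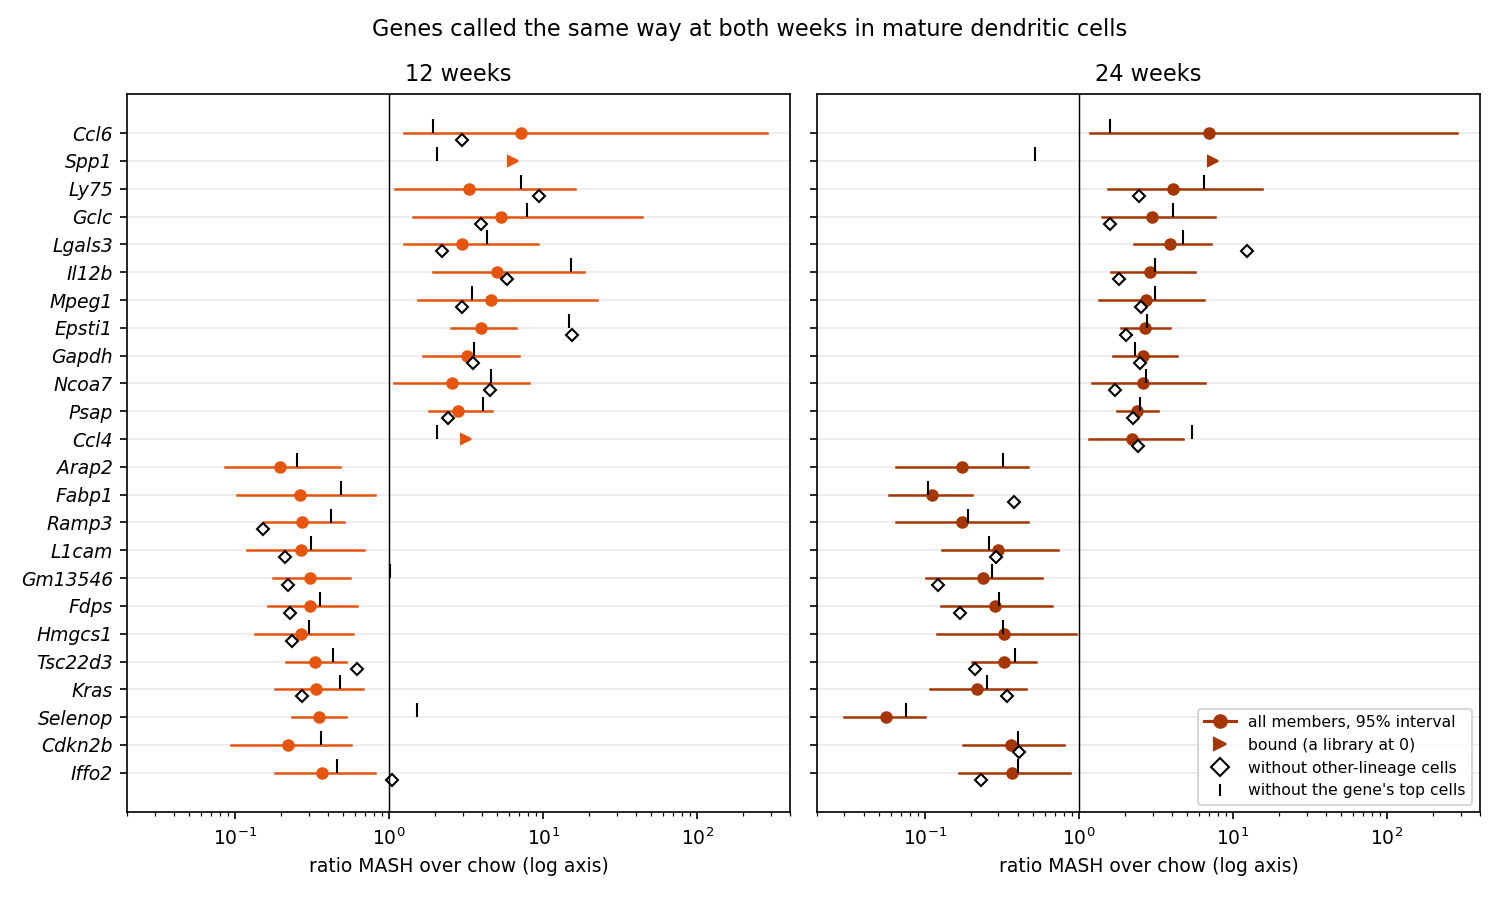
Ratio of MASH to chow CPM on log axes at 12 and 24 weeks for the 24 genes with the largest ratios among those called the same way in both weeks, with 95% intervals as bars and triangles for lower bounds where a library had no UMI. Diamonds leave out cells with other-lineage markers and ticks leave out each library's top cell (a bound for Spp1 and, at 12 weeks, Ccl4), and for Gm13546, Selenop, Iffo2 and Spp1 a tick or diamond lies at or across the line at 1 in one of the weeks.

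Plaur, which encodes the urokinase receptor uPAR that the libraries were made to examine, was close to the limit of detection in mature cells. It stood at 0, 16.9, 29.7 and 28.5 CPM, from 0, 6, 2 and 4 cells, of which 0, 5, 2 and 3 carried other-lineage markers. Without those cells Plaur stood at 0, 3.11, 0 and 3.07 CPM. In the cDC1 gate Plaur stood at 7.85 to 21.6 CPM and in the cDC2 gate at 58.3 to 138 CPM. No Plaur ratio of MASH to chow is given at this depth. Of the other plasminogen activation genes, Serpinb6b and Serpinb9, which encode intracellular serpins, were higher than in both comparison gates in all 4 libraries, at 636, 714, 430.3 and 451 CPM and at 318, 289, 89.0 and 225 CPM.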

How the data were processed

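The deposited matrices hold raw UMI counts per gene and barcode of 10x 5' libraries of liver non-parenchymal cells, made with Cell Ranger 5.0.1 (3 libraries) and Cell Ranger 4 (12-week MASH), per the file headers. The builds mm10 and GRCh38 are named in the submitters' processing notes, with no role given. Hashtag rows were kept out of gene totals. Cells kept had at least 500 UMIs, 300 genes and at most 15% mitochondrial UMIs.

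UMIs were summed over the gated cells of each library with Python 3.11.15, numpy 2.4.6, pandas 2.3.3 and scipy 1.17.1, scaled to CPM and compared as ratios with exact conditional 95% intervals. A library at 0 UMIs was set to a floor of 3 counts, and such a ratio is a bound. With 1 library a group no p-value was computed. The calling of ratios was tested on simulated pooled counts, drawn independently with no cells. That test cannot cover genes whose UMIs sit in a few cells. Doublets were called with Scrublet in scanpy 1.11.5 and kept in the main values. Alternatives were the Fscn1 minimum, thinning to 1000 UMIs, stricter cell limits, doublets or cells of several hashtags left out, hashtag subsets of the 24-week chow library, and UMI minimums of 10 and 50. Leaving out cells with other-lineage markers, the top cell of a gene, and the class II limit of 200 were chosen after seeing the data.

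The gated cells and the gene lists were chosen with earlier results of these data known. Genes named by rule were the markers, the 6 genes of each list with most UMIs, the 3 with the highest and the 3 with the lowest ratio, 12 in each direction among those called the same way at both weeks, the 20 highest over both comparison gates, and Plaur. Genes outside it were named after their values were seen. Promoter sequences are from RefSeq (GRCm38.p6) and gene positions from GENCODE on GRCm38. Protein sequences were not used here. Some genes are not reported here.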

Additional observations from a re-analysis of the deposited data

Results flagged for a closer look

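In 3 named genes the MASH library lay past the 2-fold limit in opposite directions at the 2 weeks. Il4i1 had a ratio of 0.412 at 12 weeks and 2.63 at 24 weeks. Lad1, of the migratory dendritic cell list, had 0.434 and 4.67, and without cells that carried other-lineage markers 0.525, no longer called, and 4.49. Cxcl2, a neutrophil chemokine, had a lower bound of 2.15 at 12 weeks, where chow held no UMI, and 0.444 at 24 weeks, which was 0.752 without the top cell of each library. With 1 library a group the difference between the weeks was not tested. Over all genes compared, 9 were called in opposite directions.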

How the results depend on the processing

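The share ratio of mature cells ran from 7.14 to 11.5 at 12 weeks and from 5.11 to 8.99 at 24 weeks over the alternatives. Thinning to 1000 UMIs lowered the counts of called genes to 24 higher and 35 lower at 12 weeks, 20 and 12 at 24 weeks, and 97 and 15 against the comparison gates, from far fewer UMIs. Without cells that carried other-lineage markers, 93 were lower at 12 weeks, 47 higher and 84 lower at 24 weeks, and 54 lower than the gates. A minimum of 50 UMIs left 95 lower at 12 and 46 at 24 weeks, and a minimum of 10 gave 257 at 24 weeks. Cells with 1 hashtag gave 107 lower at 12 and 75 at 24 weeks, and leaving out Scrublet calls 94 at 24 weeks. Against chow hashtags 1 to 4 the 24-week counts were 58 higher and 63 lower, and against hashtags 5 to 8, 41 higher. Of 386 ratios of 215 named genes, 19 called ones changed direction somewhere. At 12 weeks these were Fabp1 (1.29 at an Fscn1 minimum of 3), H2-M2 (2.53) and Lgals3 (0.879) thinned, Iffo2 (1.05) without other-lineage cells, and Gm13546 (1.02), S100a10 (1.01) and Selenop (1.51) without the top cells. At 24 weeks they were Epsti1 (0.986) thinned, Zeb2 (3.34) in cells with 1 hashtag, Cxcl2 (1.36), Icosl (0.905), S100a10 (1.46) and Zeb2 (1.85) against chow hashtags 1 to 4, and Gclc (0.711), H2-M2 (1.39), Il12b (0.733), Ly75 (0.928), Mpeg1 (0.926), Serpinb9 (0.644) and Txndc17 (0.696) against hashtags 5 to 8. Beyond the smaller numbers of cells and UMIs, the cause was not tested. No paired analysis was possible because each group is 1 library. The 11 and 12 chow cells set the depth limit of every ratio.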
